A study of Homo sapiens with 96 samples.

Results

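The mRNAs that are lost from melanoma cells while translation is blocked were followed in 12 QuantSeq libraries, out of 96 in the series. The 12 are those given both the transcription inhibitor triptolide and the translation inhibitor cycloheximide (hereinafter TCHX) and harvested at 0 h or 5 h, and they form 4 groups of 3 replicates. A375, a human skin melanoma cell line that carries an activating BRAF mutation, was kept for 18 h in DMSO or in MAPK inhibitors (MAPKi), here 500 nM of the BRAF inhibitor vemurafenib with 500 nM of the MEK inhibitor cobimetinib. Every TCHX well then received 100 µg/ml cycloheximide and, 5 min later, 25 µM triptolide. The groups are therefore DMSO TCHX 0 h, DMSO TCHX 5 h, MAPKi TCHX 0 h and MAPKi TCHX 5 h, and the 0 h wells were harvested as soon as both inhibitors were in. The other libraries, used here as the background of each comparison, were harvested at 0, 1, 3 or 5 h after vehicle, cycloheximide alone (CHX), triptolide alone (T) or both.

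RNA came from a detergent lysate taken as the cytoplasmic fraction. Nuclear RNA was present in it, as the counts of MALAT1 below show. QuantSeq reads only the 3′ end of polyadenylated RNA, so that counts follow the number of molecules and not their length. The wells of each harvest time were 1 of 4 parallel batches, so that time and batch cannot be told apart except through the vehicle arm, which had the same batches. All results describe a single cell line, and no source used here says whether replicates were grown on separate days, so p-values measure the spread between these libraries. The 12 libraries held between 3962033 and 10642109 counts. Of 14 melanocyte or melanoma markers, 12 were over 1 CPM, while 6 of 8 epithelial markers (EPCAM, CDH1 and KRT5 among them) and CD3E, HBA1 and HBB of 8 blood markers were at 0. KRT10 of epithelium, CD68 of blood and LUM of fibroblasts were over 1 CPM. The summed epithelial list ran from 109 to 149 CPM, and the blood list from 4.83 to 6.07 CPM in DMSO cells and from 12.2 to 19.4 CPM in MAPKi cells. Their part in the results was not tested.

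Cytoplasmic mRNAs are degraded mainly from their tail: the CCR4-NOT and PAN complexes shorten the poly(A) tail, the cap is then removed and the body is digested. Some of this decay is coupled to the ribosome, as in nonsense-mediated decay and in the decay set by slow codons. Some of it instead starts from proteins or microRNAs bound to the 3′ UTR, such as the ZFP36 proteins on AU-rich elements and the Pumilio proteins on their own motif, and short-lived messages of immediate-early genes are the textbook case. TCHX is given to stop new synthesis and translation together, so that a fall in TCHX is a net loss without ongoing translation. Some entries rose in TCHX, as given below, so that a level left is a net change and not a pure rate of loss. Long noncoding RNAs, which are not translated into protein, can be set beside these falls.

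Which messages fell while translation was blocked was asked first within each pretreatment, as the change from 0 h to 5 h in TCHX. Counts were scaled on 36 genes whose share of the reads rose by at least 1.1-fold in T at 3 h and 5 h, and are given below as normalized counts. Each change was tested over 14948 genes with edgeR's quasi-likelihood test, and "rose" and "fell" below mean that its p, adjusted by Benjamini-Hochberg, was under 0.05. In DMSO cells 2995 genes fell, 20% of those tested, and 181 rose, 1.21%. In MAPKi cells 1642 fell, 11%, and 242 rose, 1.62%. Over the same 5 h in vehicle, 33 genes fell in DMSO cells (0.221%) and 0.823% of those tested in MAPKi cells, and 22 and 28 of these also fell in TCHX. In vehicle 74 genes rose in DMSO cells (0.495%) and 200 in MAPKi cells (1.34%).

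No fixed total among the cells' own RNAs is left to divide by once transcription is blocked, and these counts depended on the scaling. An ERCC spike-in was added to each RNA sample and was not used here. With TMM scaling, which sets the typical gene to no change, 1172 genes fell (7.84%) and 395 rose (2.64%) in DMSO cells, and 974 fell (6.52%) and 853 rose (5.71%) in MAPKi cells. The median log2 change of all tested genes moved from -0.26 to 0.02 in DMSO cells and from -0.15 to 0.04 in MAPKi cells. The 8 scalings tried were the 36 stable genes, 3 other choices of stable genes, TMM, DESeq2 size factors, total counts and the mitochondrial rRNAs. Under every one of them 1145 genes fell in DMSO cells (7.66%) and 974 in MAPKi cells (6.52%), and 156 (1.04%) and 161 (1.08%) rose. The genes that fell under all 8 scalings in both pretreatments numbered 636, which is 55.5% of the DMSO set and 65.3% of the MAPKi set. They comprised 462 of 11898 tested protein-coding genes, 89 of 1732 long noncoding RNAs, 18 of 300 pseudogenes, 19 of 194 small or structural RNAs and 48 of 824 entries of other or unknown class.

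Most messages stayed. Loss of RNA from each cell and loss of cells cannot be told apart in bulk lysates. Among tested genes the median level left at 5 h in TCHX was 84.9%, 78.7% and 79.4% of the 0 h mean in the DMSO replicates, 81.0% ± 3.40 (SD, n = 3), and 87.9%, 86.6% and 89.8% in the MAPKi replicates, 88.1% ± 1.60 (n = 3). The 3 values of a pretreatment share their 0 h mean, so that these SDs and the test that follows hold only the spread at 5 h. All 3 MAPKi values lay above all 3 DMSO values, at p = 0.1 in a two-sided exact permutation test, the smallest p that 3 against 3 allows. This order turned round under 5 of the other scalings, so that no difference between the pretreatments in the typical message was shown. In T the median was 66.4% in DMSO cells and 58.5% in MAPKi cells, and in vehicle 99.7% and 102%. Of 9128 genes with at least 50 normalized counts at 0 h in DMSO cells, 574 had under 50% left, 122 under 25% and 30 under 10%. Of 9193 such genes in MAPKi cells, 391, 88 and 24 were under these marks.

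The immediate-early transcription factors, genes switched on within minutes of a growth signal, were among the groups with the least left. Over all genes 20% fell in DMSO cells and 11% in MAPKi cells. Of 38 of these factors measured, 21 fell (55.3%) and 0 rose in DMSO cells, and 18 fell (47.4%) and 1 rose in MAPKi cells. Their median level left was 44.2% and 63.4%, against 83.6% and 90.3% over all genes (medians of a list here and below are taken over the fitted changes), and in T it was 9.31% and 9.08%. Under all 8 scalings 18 of them fell in DMSO cells and 14 in MAPKi cells. The messages described next were read for the AU-rich heptamer TATTTAT on the sense strand of their 3′ UTRs, which 37.3% of 11998 tested 3′ UTRs hold. It contains the shorter pentamer ATTTA. The sites below, from GENCODE transcripts on GRCh38, belong to 4 messages that fell in both pretreatments and are shown because they are the letters that AU-rich element proteins are known to bind, with the heptamer in capitals.

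NFKBIA, chr14:35401701-35401725, minus strand: cacattttaTATTTATtgtgcttcg

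NFKBIA, chr14:35401522-35401546, minus strand: tatgatgtaTATTTATtaaacagat

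IER5, chr1:181091982-181092006, plus strand: ataataatgTATTTATagaattaaa

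IER5, chr1:181092445-181092469, plus strand: gtcttccttTATTTATttatttatt

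MCL1, chr1:150575809-150575833, minus strand: ctctacagaTATTTATatcaattcc

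MCL1, chr1:150575194-150575218, minus strand: ttacctatgTATTTATcgttcttga

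SGK1, chr6:134169479-134169503, minus strand: aatgggcatTATTTATgtttttttt

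NFKBIA, which encodes the IκBα inhibitor that holds NF-κB in the cytoplasm, carries both of its heptamers in a short 3′ UTR. In DMSO cells it stood at 402, 381 and 431 normalized counts at 0 h and 33.3, 14.7 and 13.9 at 5 h. In MAPKi cells it stood at 732, 749 and 690.1 normalized counts at 0 h and 71.3, 96 and 93.9 at 5 h. In each pretreatment all 5 h libraries lay far under all 0 h libraries, and 5.09% ± 2.71 (SD, n = 3) of the message was left in DMSO cells and 12.03% ± 1.89 in MAPKi cells. The log2 changes were -4.20 ± 0.22 (SE, adjusted p = 2.5e-27) and -3.06 ± 0.18 (adjusted p = 6e-24). In T less was left, 0.718% and 1.03%.

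NFKBIZ, a nuclear relative of NFKBIA, lost nearly all of its message although its annotated 3′ UTR holds no TATTTAT. In DMSO cells it stood at 160.2, 147 and 165 normalized counts at 0 h and 0.665, 8.64 and 5.79 at 5 h. After MAPKi it stood at 109.6, 133 and 227 normalized counts at 0 h and 1.36, 4.65 and 2.68 at 5 h. All 5 h values were below all 0 h values, and the levels left in T, 2.47% ± 1.12 and 1.09% ± 1.21, lay within the spread of those in TCHX, 3.20% ± 2.57 and 1.85% ± 1.06. NFKBIZ overlaps NXPE3 on the same strand, and reads in the overlap cannot be given to either gene. TNFAIP3, another NF-κB inhibitor with 2 heptamers, had 36.6% ± 13.5 left in DMSO cells, where it fell (adjusted p = 0.0004), while in MAPKi cells it was too low at 0 h to follow. Over the list of 22 AU-rich cytokine and NF-κB messages, 4 fell in DMSO cells and 2 in MAPKi cells, with medians of 82.6% and 75.9%. These are 18.2% and 9.09% of the list, beside 20% and 11% over all genes.

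IER5, an immediate-early regulator of the heat shock response, holds 4 heptamers of which 3 overlap in 1 AU run. It stood at 322, 309 and 338 normalized counts at 0 h and 55.2, 44.9 and 61.3 at 5 h in DMSO cells. The MAPKi libraries stood at 237, 185 and 196 normalized counts at 0 h and 35.3, 33.7 and 48.3 at 5 h. The groups did not overlap, and the levels left, 16.7% ± 2.56 and 19.0% ± 3.87, differed by less than their spread. In T 3.47% ± 0.251 and 4.77% ± 2.94 were left.

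MCL1 encodes a short-lived survival protein of the BCL2 family, and its message was abundant. It stood at 1573, 1379 and 1591 normalized counts at 0 h and 335, 256 and 201 at 5 h in DMSO cells. MAPKi cells had 367, 490.1 and 584 normalized counts at 0 h and 179, 138 and 178 at 5 h. MAPKi cells began with less MCL1, the groups did not overlap in either pretreatment, and the message fell in both, to 17.4% ± 4.42 and 34.3% ± 4.88. The difference between the pretreatments, 0.94 ± 0.26 log2, did not pass the test (adjusted p = 0.062). MCL1 lies antisense to ADAMTSL4, and no source used here says whether reads were counted by strand. Of 18 BCL2 family members 3 fell in DMSO cells and 6 in MAPKi cells. These are 16.7% and 33.3% of the list, beside 20% and 11% over all genes. Among those that fell were the pro-death messages BBC3, with 26.7% and 22.3% left, and BCL2L11, with 56.0% and 50.9%.

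SGK1, a kinase whose message and protein turn over fast, stood at 468, 383 and 382 normalized counts at 0 h and 63.2, 39.8 and 39.4 at 5 h in DMSO cells. Its MAPKi values were 457, 409 and 571 normalized counts at 0 h and 47.5, 27.9 and 29.5 at 5 h. All 5 h libraries were below all 0 h libraries, with 11.5% ± 3.32 and 7.31% ± 2.28 left. ID1 and JUNB, a dominant-negative helix-loop-helix factor and an AP-1 subunit, have no heptamer and fell as far. ID1 kept 9.97% ± 5.198 in DMSO cells and 12.1% ± 4.55 in MAPKi cells, and JUNB kept 14.9% ± 4.38 and 11.7% ± 5.61. JUNB lies antisense to HOOK2. Further members, named whatever their values, fell less: JUN kept 37.2% ± 9.35 and 43.2% ± 4.76, and IER2 27.6% ± 2.08 and 42.5% ± 9.91.

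**Figure D1:**
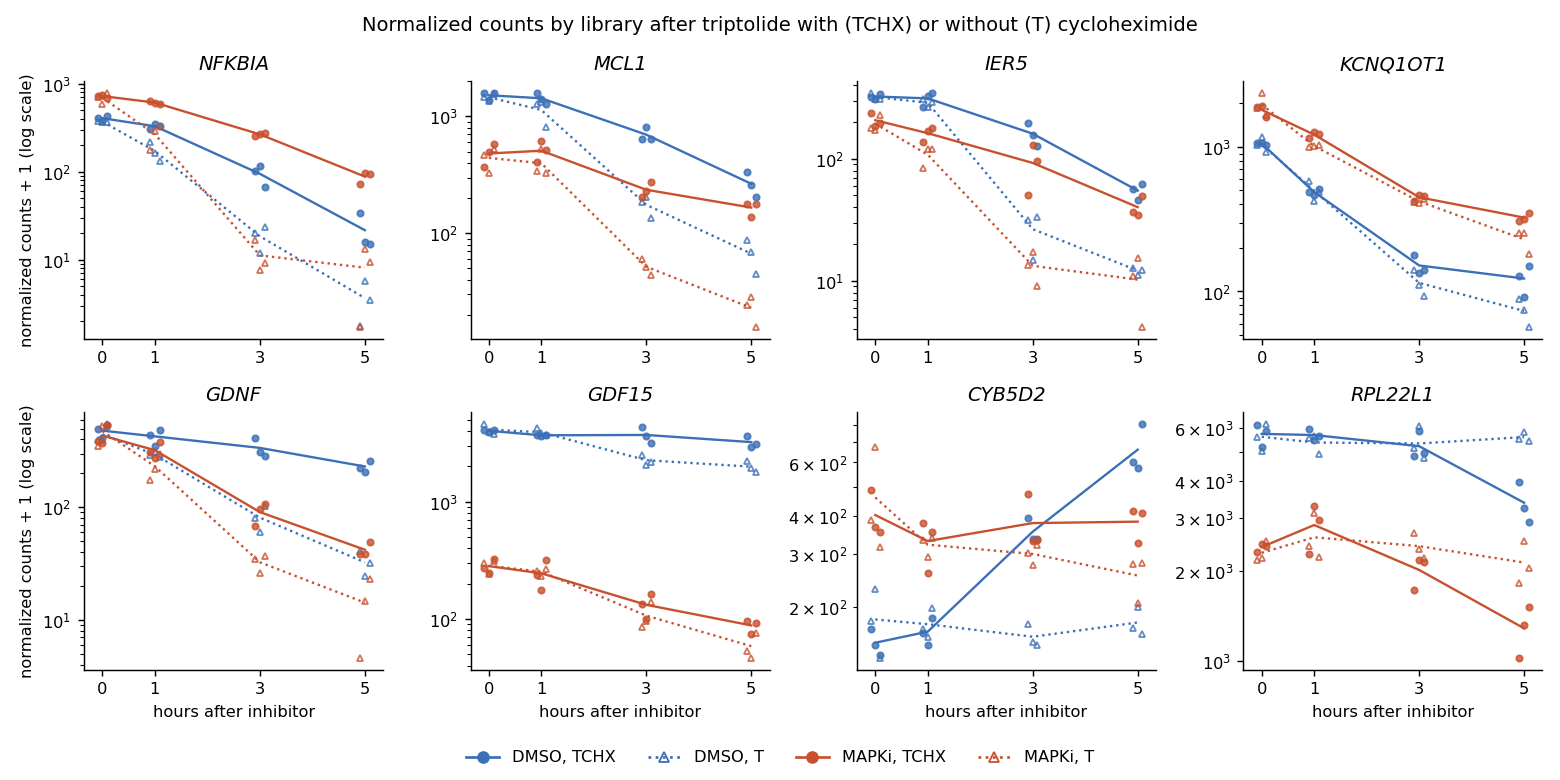
Normalized counts plus 1 on a log axis against hours after the inhibitors for 8 genes, with DMSO cells in blue and MAPKi cells in red, TCHX as solid lines with circles and T as dotted lines with triangles; each point is a library and the lines join the means of 3 replicates. NFKBIA, MCL1, IER5 and KCNQ1OT1 fall in both arms, with TCHX above T. GDNF falls further in MAPKi cells than in DMSO cells in TCHX, CYB5D2 rises in DMSO cells in TCHX and not in T, and RPL22L1 ends lower in TCHX than in T.

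Targets of the ERK kinase include its feedback inhibitors, several of which stood near 0 in MAPKi cells before the time course began. Of 24 measured, 14 fell in TCHX in DMSO cells and 8 in MAPKi cells, with medians of 61.7% and 62.9%. These are 58.3% and 33.3% of the list, beside 20% and 11% over all genes. The falls that held under all 8 scalings numbered 8 and 7, beside 7.66% and 6.52% over all genes. SPRY2, an inhibitor of receptor signalling, stood at 440.0, 424 and 420.1 normalized counts at 0 h and 108, 76.9 and 61.3 at 5 h in DMSO cells, which did not overlap, and 19.2% ± 5.61 was left. In MAPKi cells it had only 9.96, 6.16 and 4.90 at 0 h, so that the further loss rests on few counts. DUSP5, the nuclear ERK phosphatase, kept 11.8% ± 6.63 in DMSO cells and 22.6% ± 14.0 in MAPKi cells, and EGR1 kept 21.9% ± 3.13 in DMSO cells and was near 0 throughout in MAPKi cells. PHLDA1, with 3 heptamers, behaved otherwise: 66.7% ± 6.42 and 49.7% ± 10.1 were left in TCHX against 6.65% ± 1.14 and 2.57% ± 1.32 in T.

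Messages for the decay machinery itself were among those that fell. Of 22 genes for AU-rich element binding proteins and the adaptors that recruit deadenylases, 14 fell in DMSO cells and 14 in MAPKi cells, with medians of 58.7% and 59.3%. These are 63.6% of the list in each, beside 20% and 11% over all genes. The falls that held under all 8 scalings numbered 10 and 13, beside 7.66% and 6.52% over all genes. TOB2, which joins RNA-bound proteins to the CCR4-NOT deadenylase, stood at 365, 334 and 345 normalized counts at 0 h and 126, 111 and 105 at 5 h in DMSO cells. In MAPKi cells it stood at 329, 369.9 and 401 normalized counts at 0 h and 113, 144 and 142 at 5 h. These groups did not overlap, and the levels left were 32.7% ± 3.04 and 36.4% ± 4.70. ZC3H12A, an endonuclease that cuts stem-loops in inflammatory messages, stood at 24.7, 29.4 and 25.6 normalized counts at 0 h and 2.00, 0.864 and 1.16 at 5 h in DMSO cells, and at 66.4, 48.3 and 57.8 normalized counts at 0 h and 1.36, 6.40 and 9.39 at 5 h in MAPKi cells. Again no 5 h library reached a 0 h library. KHSRP, the most abundant of the list, did not pass the test in either pretreatment, with 91.4% ± 10.8 and 95.1% ± 4.56 left.

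The core enzymes stayed closer to the typical gene. Of 39 genes of the CCR4-NOT, PAN and decapping complexes, 11 fell in DMSO cells and 4 in MAPKi cells, with medians of 86.6% and 93.0%. These are 28.2% and 10.3% of the list, beside 20% and 11% over all genes, and 1 in each pretreatment fell under all 8 scalings. Of 17 factors of nonsense-mediated decay, which depends on translation, 0 fell in DMSO cells and 2 in MAPKi cells (0% and 11.8%). UPF1, the helicase of that pathway, kept 93.2% ± 2.45 and 99.1% ± 5.14. GAPDH kept 93.7% ± 6.84 and 91.2% ± 3.11, and VIM kept 96.2% ± 12.4 and 115% ± 17.1. Of 82 cytosolic ribosomal protein genes 2 fell in DMSO cells and 1 in MAPKi cells (2.44% and 1.22%).

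Zinc finger genes named ZNF, most of them KRAB-type repressors of transcription, formed the largest group with a low level left. Of 379 tested, 176 fell in DMSO cells (46.4%) and 101 in MAPKi cells (26.6%), beside 20% and 11% over all genes. None of the ZNF genes rose in either. Their median level left was 57.3% and 65.9% in TCHX and 23.4% and 21.7% in T. Under all 8 scalings 98 and 62 of them fell. The members with the least left in DMSO cells were low in counts, as ZNF493, which stood at 27.7, 16.4 and 17.4 normalized counts at 0 h and 1.33, 2.59 and 0 at 5 h in DMSO cells and at 54.8, 47.3 and 47.0 normalized counts at 0 h and 17.0, 12.2 and 28.2 at 5 h in MAPKi cells. Its 0 h and 5 h libraries did not overlap in either pretreatment. ZNF106, the most abundant, kept 81.2% ± 10.4 in DMSO cells, where it did not pass the test, and 70.7% ± 12.5 in MAPKi cells, where it fell (adjusted p = 0.016). Members of this family share sequence, and reads from close copies may have been counted under another member or left out.

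**Figure D2:**
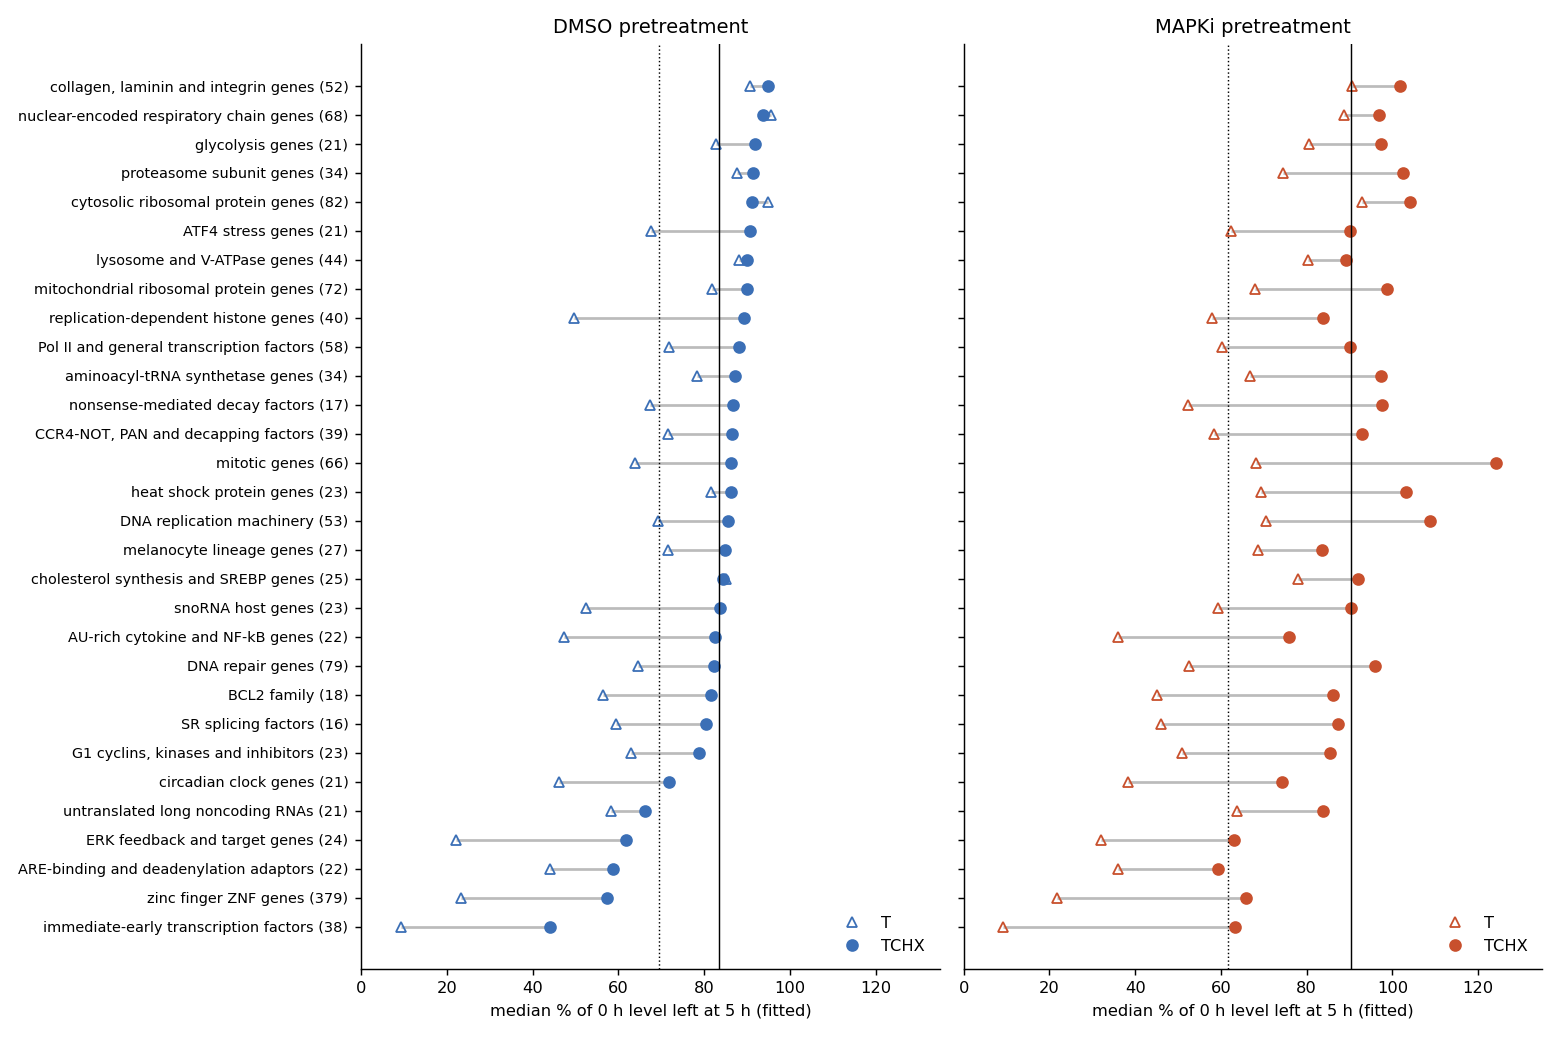
Median percent of the 0 h level left at 5 h for each gene list, with T as triangles and TCHX as circles, in DMSO cells and in MAPKi cells; the vertical lines are the medians of all tested genes, solid for TCHX and dotted for T. In DMSO cells the immediate-early genes lie furthest to the left (44.2% in TCHX), in MAPKi cells the AU-rich element adaptors do in TCHX (59.3%), and the mitotic genes lie at 86.3% in DMSO cells and 124% in MAPKi cells.

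Of other lists, 9 of 23 genes for G1 cyclins, kinases and inhibitors fell in DMSO cells and 6 in MAPKi cells. These are 39.1% and 26.1%, beside 20% and 11% over all genes. CDKN1B, the p27 inhibitor of cyclin-dependent kinases, stood at 217, 165 and 198 normalized counts at 0 h and 25.3, 34.6 and 40.5 at 5 h in DMSO cells, and at 267, 234 and 338 normalized counts at 0 h and 58.4, 34.9 and 95.2 at 5 h in MAPKi cells, with no overlap in either. E2F3, which drives entry into S phase, kept 36.2% ± 0.715 and 35.8% ± 5.07, and CCNE1, cyclin E1, 42.3% ± 6.11 and 38.8% ± 6.89. These levels were alike within their spread in both pretreatments. Of 16 SR splicing genes 9 and 5 fell (56.25% and 31.25%), led by CLK1, the kinase of SR proteins, with 29.3% ± 6.34 and 42.9% ± 11.5 left. Of 21 clock genes 8 and 4 fell (38.1% and 19.0%). The falls that held under all 8 scalings numbered 4 and 6 for the G1 genes, 4 and 2 for the SR genes and 2 and 3 for the clock genes. Over all genes 7.66% and 6.52% fell under all 8. DNAJB1, a heat shock co-chaperone, kept 14.3% ± 3.85 and 29.5% ± 11.3 and fell in both, and INSIG1, a sterol sensor, kept 49.6% ± 10.1 and 45.1% ± 5.79.

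RNAs that ribosomes do not use for protein also fell, as a reference for loss without translation. Among 1732 tested long noncoding RNAs 249 fell in DMSO cells and 173 in MAPKi cells, with medians of 72.6% and 80.9%, against 84.6% and 91.3% for protein-coding genes. The share that fell was nevertheless smaller, 14.4% and 9.99% against 21.0% and 10.9% for protein-coding genes, and 60 and 83 of the long noncoding RNAs rose. In T the medians of the long noncoding RNAs were 61.0% and 58.1%, against 71.1% and 62.6% for protein-coding genes. Their loss was smaller in TCHX than in T for 62 and 133 entries and larger for 6 and 7. Over all genes it was smaller for 13.2% and 32% and larger for 0.227% and 0.254%. KCNQ1OT1, the antisense RNA of an imprinted locus, stood at 1061, 1068 and 1035 normalized counts at 0 h and 128, 89.9 and 148 at 5 h in DMSO cells. After MAPKi it stood at 1893, 1914 and 1606 normalized counts at 0 h and 306, 316 and 349 at 5 h. All 5 h libraries were well below all 0 h libraries, with 11.6% ± 2.80 and 17.9% ± 1.25 left, and in T 6.95% ± 1.54 and 11.7% ± 2.15. It overlaps KCNQ1 on the other strand. MALAT1, a long-lived nuclear RNA, was at 38389.6, 36190.4 and 41421 at 0 h and 43748, 35976 and 41337 at 5 h in DMSO cells, which overlapped. Nuclear RNAs were thus counted as well, and in which part of the cell the long noncoding RNAs were lost was not tested.

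Some host transcripts of microRNAs and some entries named for introns of other genes (IT) were lost almost completely. Of 26 tested microRNA host entries 7 fell in each pretreatment, 26.9% of them, beside 20% in DMSO cells and 11% in MAPKi cells over all genes. MIR17HG, the transcript of the miR-17 to miR-92 cluster, stood at 155, 142 and 139 normalized counts at 0 h and 1.33, 0 and 1.16 at 5 h in DMSO cells, and MIR222HG at 397, 339 and 259 normalized counts at 0 h and 9.31, 10.4 and 3.47 at 5 h. MIRLET7BHG stood at 115, 92.5 and 90.2 normalized counts at 0 h and 6.79, 3.49 and 9.39 at 5 h in MAPKi cells. None of these 5 h libraries came near a 0 h library. Of 19 intron-named entries 14 fell in DMSO cells and 11 in MAPKi cells, with medians of 11.6% and 20.5%. These are 73.7% and 57.9% of the entries, beside 20% and 11% over all genes. ASAP1-IT1 stood at 108, 137 and 100.4 normalized counts at 0 h and 1.33, 0 and 2.31 at 5 h in DMSO cells and BIN3-IT1 at 54.4, 62.2 and 71.7 normalized counts at 0 h and 0, 0 and 2.31 at 5 h. Reads of such entries may come from the host gene's unspliced RNA, which this assay does not separate.

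The remaining entries with the largest falls were a mixed group. RPL23AP32, a processed pseudogene of a ribosomal protein gene, stood at 291, 211 and 217 normalized counts at 0 h and 4.66, 0.864 and 5.79 at 5 h in DMSO cells and at 422, 303 and 351 normalized counts at 0 h and 18.3, 23.9 and 12.1 at 5 h in MAPKi cells, and reads of its parent gene could count here. EBLN2, a gene derived from an ancient bornavirus, stood at 47.5, 83.4 and 60.5 normalized counts at 0 h and 0, 0 and 2.31 at 5 h in DMSO cells and at 74.7, 83.2 and 73.5 normalized counts at 0 h and 1.36, 0 and 1.34 at 5 h in MAPKi cells. Both were nearly gone at 5 h in every library. LOC107985895, an uncharacterized entry, stood at 74.2, 55.6 and 72.7 at 0 h in DMSO cells and at 0 in all 3 libraries at 5 h, at least 25.1-fold lower at a floor of 3 counts per library. LOC112268009, likewise uncharacterized, stood at 49.8, 59.6 and 71.6 at 0 h in MAPKi cells and at 0 in all 3 at 5 h, at least 23.2-fold lower. PIK3R3, a regulatory subunit of phosphoinositide 3-kinase, stood at 96.3, 79.1 and 75.5 normalized counts at 0 h and 5.43, 3.49 and 2.68 at 5 h in MAPKi cells, where it fell, and was low throughout in DMSO cells.

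Rises were few, and several started at or near 0. LOC105374748, an uncharacterized entry, stood at 53.4, 57.3 and 59.4 normalized counts at 0 h and 2303, 2246 and 3314 at 5 h in DMSO cells. The MAPKi libraries stood at 34.9, 33.9 and 21.6 normalized counts at 0 h and 318, 216 and 382 at 5 h. No 5 h library overlapped a 0 h library, and the 5 h level was 4623% and 1015% of the 0 h level, against 275% and 84.6% in T. BMP5, a secreted bone morphogenetic protein, was at 0 in all 0 h libraries and at 49.9, 41.5 and 33.6 at 5 h in DMSO cells, at least 11.4-fold higher, and at 73.4, 73.3 and 48.3 in MAPKi cells, at least 17.7-fold higher. COL21A1, a collagen, went from 0 in all 0 h libraries to 26.6, 25.1 and 26.6 in DMSO cells and 34.0, 76.8 and 77.8 in MAPKi cells. BMP5 and COL21A1 were present at 5 h in T as well, and the test of TCHX against T did not pass for either.

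TPRG1 stood at 3.96, 0 and 1.02 normalized counts at 0 h and 31.3, 18.2 and 28.9 at 5 h in DMSO cells and at 0, 0 and 0.980 normalized counts at 0 h and 84.2, 108 and 68.4 at 5 h in MAPKi cells, and rose in both. SIRT4, a mitochondrial sirtuin, stood at 2.97, 3.27 and 0 normalized counts at 0 h and 47.2, 39.8 and 63.7 at 5 h in DMSO cells, where it rose, and at 9.96, 7.19 and 5.88 normalized counts at 0 h and 6.79, 9.31 and 5.36 at 5 h in MAPKi cells, where the libraries overlapped. CCDC152 stood at 1.98, 1.64 and 11.3 normalized counts at 0 h and 62.5, 56.2 and 53.2 at 5 h in DMSO cells, where it rose. It lies antisense to SELENOP, TPRG1 antisense to TPRG1-AS1, and counting by strand is not stated.

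Whether blocking translation changed the loss was asked by subtracting the change in T from the change in TCHX within each pretreatment. The loss was smaller with translation blocked for 1980 genes in DMSO cells (13.2% of those tested) and for 4786 in MAPKi cells (32%), and larger for 34 (0.227%) and 38 (0.254%). With TMM the MAPKi counts were 1811 smaller and 850 larger, and with the stable genes of the TCHX arm the split turned round, to 995 smaller and 2822 larger in MAPKi cells and 752 and 837 in DMSO cells. A smaller loss under all 8 scalings was called for 752 genes in DMSO cells (5.03%) and 994 in MAPKi cells (6.65%), and a larger one for 23 (0.154%) and 26 (0.174%). The T and TCHX changes come from separate libraries. Long noncoding RNAs were also among the genes with a smaller loss, as given above, so that these counts are not confined to translated messages. Of the 2995 genes that fell in TCHX in DMSO cells 2729 (91.1%) also fell in T, where 6900 genes fell (46.2%), and of the 1642 in MAPKi cells 1530 (93.2%) did, where 8180 fell (54.7%). Across genes with at least 50 normalized counts at 0 h, the percent left in T and in TCHX had a Spearman correlation of 0.650 in DMSO cells (9128 genes) and 0.518 in MAPKi cells (9193 genes), which describes these genes and is no test, since the percentages of a gene share its level and base composition.

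Of the messages with under 25% left in T, 733 in DMSO cells had a median of 15.5% in T and 50.8% in TCHX, with quartiles of 34.1% and 65.5%. In MAPKi cells 988 such messages had a median of 14.9% in T and 65.3% in TCHX. Of these, 112 in DMSO cells and 82 in MAPKi cells were also under 25% in TCHX. The messages were chosen by their low level in T, so that a lower median in T than in TCHX is in part set by the choice. The medians are given under the main scaling alone, which rests on genes whose share of the reads rose in T. With the stable genes of the TCHX arm the split over all genes turned round, as given above. These medians are therefore a description and no test of whether blocking translation changed the loss. JUN was the widest apart among the immediate-early genes described above: in DMSO cells 37.2% ± 9.35 was left in TCHX and 1.69% ± 1.80 in T, a difference of 4.45 ± 0.39 log2 (adjusted p = 1.7e-15), and in MAPKi cells 43.2% ± 4.76 and 0.653% ± 0.0496. For TNRC6A, ZNF493 and NFKBIZ, by contrast, the difference did not pass the test in DMSO cells.

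**Figure D3:**
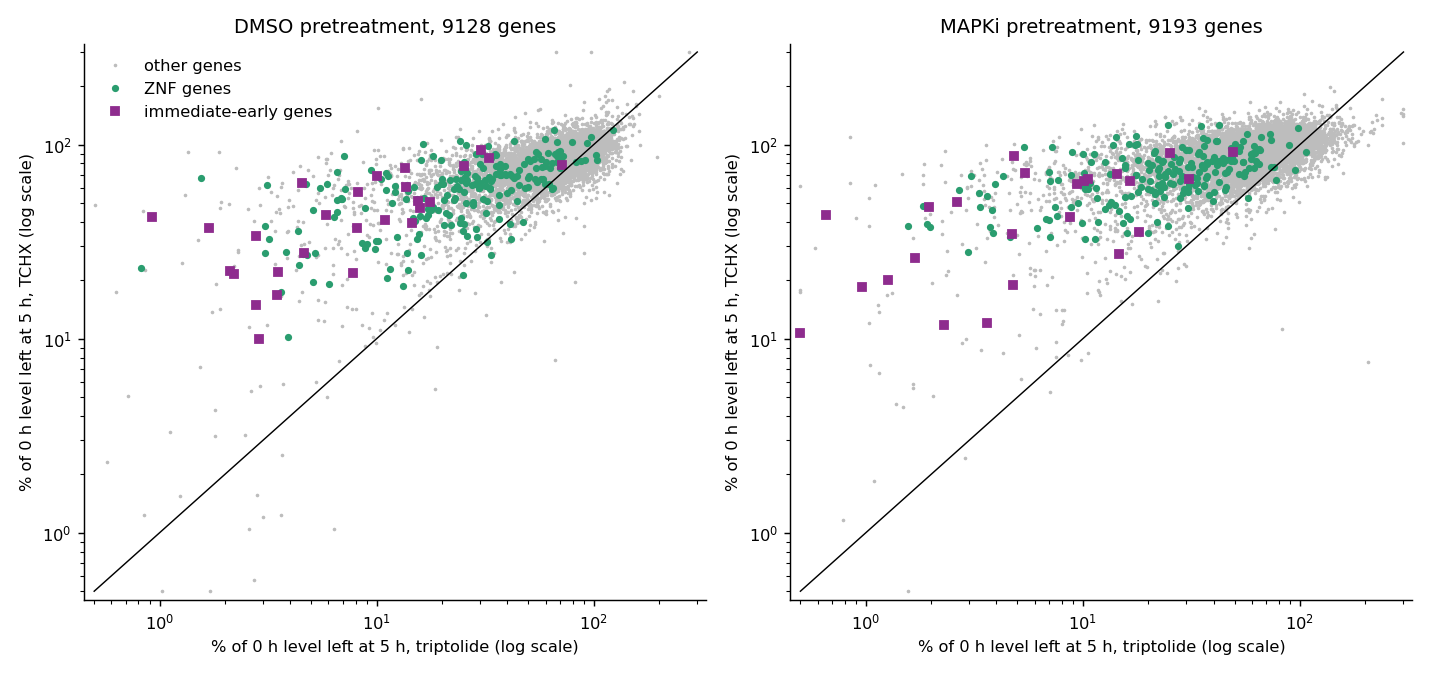
Percent of the 0 h level left at 5 h in T (horizontal) against TCHX (vertical), both on log axes, for the 9128 genes of DMSO cells and the 9193 of MAPKi cells with at least 50 normalized counts at 0 h; ZNF genes are green, immediate-early factors purple, other genes grey, and the line marks equal levels. Points beyond the axes are drawn at the edge. With this scaling most points lie above the line, and the immediate-early factors lie far to the left of it.

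A few messages were lost more with translation blocked than without, and their values follow; these were chosen after their values were seen, apart from RPL22L1 and HSPA2. Among genes with at least 50 normalized counts at 0 h that fell in TCHX, RPL22L1 and RNF145 had the larger loss in TCHX in both pretreatments. RPL22L1 (chr3:170864875-170870208), a paralog of the ribosomal protein gene RPL22, stood at 6153, 5179 and 5854 normalized counts at 0 h and 3963, 3238 and 2911 at 5 h in DMSO cells. MAPKi cells had 2309, 2458 and 2418 normalized counts at 0 h and 1018, 1311 and 1511 at 5 h. All 5 h libraries lay below all 0 h libraries, with 58.8% ± 9.40 and 53.5% ± 10.4 left, while in T 99.8% ± 3.82 and 92.8% ± 15.6 were left. The difference was -0.76 ± 0.17 log2 (adjusted p = 0.00063) and -0.80 ± 0.18 (adjusted p = 0.00016), and passed under 7 of 8 scalings in DMSO cells and 8 of 8 in MAPKi cells.

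RNF145, a ubiquitin ligase of the endoplasmic reticulum that responds to sterols, stood at 1364, 1286 and 1396 normalized counts at 0 h and 542, 459.8 and 477 at 5 h in DMSO cells. Its MAPKi values were 638, 702 and 737 normalized counts at 0 h and 282, 298 and 314 at 5 h. The groups did not overlap, and 36.5% ± 3.20 and 43.0% ± 2.31 were left against 50.1% ± 4.38 and 56.6% ± 1.64 in T, differences of -0.45 ± 0.14 log2 (adjusted p = 0.02) and -0.40 ± 0.15 (adjusted p = 0.03) that passed under 7 of 8 scalings in each.

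In DMSO cells alone the difference passed under all 8 scalings for KIAA0232, INPP4B, MAST2 and HSPA2. KIAA0232 kept 13.2% ± 2.74 in TCHX and 31.9% ± 4.02 in T in DMSO cells, and 21.9% ± 3.97 and 22.7% ± 2.36 in MAPKi cells. INPP4B, a phosphatase of phosphoinositides, stood at 562, 579 and 606 normalized counts at 0 h and 238, 231 and 259 at 5 h in DMSO cells, which did not overlap. It kept 41.7% ± 2.56 in TCHX and 82.7% ± 3.84 in T there, and 73.2% ± 6.15 and 68.7% ± 8.33 in MAPKi cells. MAST2, a microtubule-associated kinase, kept 35.04% ± 4.60 and 72.3% ± 7.54 in DMSO cells, and HSPA2, a heat shock protein gene, 19.6% ± 6.36 and 81.8% ± 24.2. In MAPKi cells alone it passed under all 8 scalings for ECM1, SORCS1, EIF3K_1, LOC112268009 and TRNM. ECM1, an extracellular matrix protein gene, kept 61.4% in TCHX and 108% in T in MAPKi cells, and SORCS1, a sorting receptor gene, 60.6% and 95.4%. EIF3K_1, an entry with a repeat suffix, kept 7.58% and 206%, with a wide error on the difference (-4.60 ± 1.37 log2). LOC112268009 had 0% left in TCHX and 1.57% in T, so that both arms were near 0 at 5 h. TRNM kept 11.2% and 82.7%, and its TCHX value includes MAPKi replicate 2 at 0 h, a library far above the other replicates, as given below. Whether this difference between T and TCHX itself differs between the pretreatments was not tested.

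The third question was whether MAPKi changed the loss in TCHX, tested as the MAPKi change minus the DMSO change. The difference passed for 106 genes, 0.709% of those tested, of which 19 ended relatively lower in MAPKi cells (0.127%) and 87 relatively higher (0.582%). The counts were 23 and 49 with TMM (0.154% and 0.328%), and 67 and 1 when the mitochondrial rRNAs set the scale. Under all 8 scalings 11 genes were lower (0.0736%) and 1 was higher (0.00669%). Leaving out replicate 1, 2 or 3 left 46, 14 and 10 genes, so that most calls rest on the full set of libraries, while those of GDNF, CYB5D2 and RN7SL832P held each time. The 12 genes that held under all 8 scalings were GDNF, GDF15, CYB5D2, DDX3X, MAPK6, ZBTB18, FAM71F1, RN7SL832P, LOC105374748, SNORD104 and TRNF, all lower in MAPKi cells, and NPTN-IT1, which was higher. Of these DDX3X, MAPK6, ZBTB18 and FAM71F1 are outside the naming rule and were chosen after their values were seen.

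GDNF and GDF15, both secreted ligands of the TGF-β superfamily, were the clearest of the messages that fell further after MAPKi. Both 3′ UTRs hold 3 heptamers, and the first and last of each are shown in the same manner.

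GDNF, chr5:37814688-37814712, minus strand: tagagaagaTATTTATtgaaattta

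GDNF, chr5:37814623-37814647, minus strand: tttttccctTATTTATtaaagtttc

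GDF15, chr19:18389039-18389063, plus strand: aaacagctgTATTTATataagtctg

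GDF15, chr19:18389121-18389145, plus strand: ggaactgtgTATTTATttaaaactc

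GDNF (chr5:37812677-37840041, GRCh38), a growth factor for neurons and neural crest cells, stood at 490.4, 411 and 534 normalized counts at 0 h and 224, 207 and 258 at 5 h in DMSO cells. In MAPKi cells it stood at 388, 371 and 538 normalized counts at 0 h and 37.4, 37.2 and 48.3 at 5 h. The 0 h libraries of both pretreatments overlapped, whereas all 5 h MAPKi libraries lay under all 5 h DMSO libraries, and 9.47% ± 1.47 was left after MAPKi against 48.0% ± 5.49. The difference was -2.37 ± 0.30 log2 (adjusted p = 8.5e-08), and it passed under every alternative tried, with adjusted p from 1.3e-18 to 0.00068. In T 7.09% ± 1.84 and 2.79% ± 1.97 were left. GDNF overlaps GDNF-AS1 on the other strand.

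GDF15, a stress-induced ligand that acts on appetite, was far lower in MAPKi cells from the start. It stood at 4100.5, 3926 and 4048 normalized counts at 0 h and 3606, 2949.9 and 3109 at 5 h in DMSO cells. After MAPKi it stood at 274, 245 and 327 normalized counts at 0 h and 95.8, 73.9 and 92.5 at 5 h. The message fell in MAPKi cells, with 31.0% ± 4.19 left, and did not pass the test in DMSO cells, with 80.0% ± 8.50 left, and the difference was -1.38 ± 0.26 log2 (adjusted p = 0.001). Over all alternatives its adjusted p ran from 2.5e-11 to 0.088.

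MAPK6, the atypical kinase ERK3, stood at 824, 903 and 874 normalized counts at 0 h and 551, 462 and 519 at 5 h in DMSO cells. The MAPKi libraries stood at 1056, 1039.8 and 955 normalized counts at 0 h and 314, 367 and 369 at 5 h. It fell in both, to 58.9% ± 5.22 and 34.4% ± 3.02, with a difference of -0.78 ± 0.15 log2 (adjusted p = 0.0018). DDX3X, an RNA helicase of translation initiation, kept 78.3% ± 3.56 and 51.4% ± 2.83 (difference -0.61 ± 0.13 log2, adjusted p = 0.0068), and ZBTB18, a repressor of transcription, kept 54.0% ± 19.7 and 23.8% ± 5.04 (difference -1.13 ± 0.27 log2, adjusted p = 0.024). ARID3A, a DNA-binding factor, kept 52.3% ± 23.3 and 23.1% ± 3.49 (difference -1.22 ± 0.30 log2, adjusted p = 0.03), and was among those lost under other scalings.

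CYB5D2 (chr17:4143168-4187310), which encodes a haem-binding protein, rose in DMSO cells, and in MAPKi cells did not pass the test. It stood at 168, 149 and 138 normalized counts at 0 h and 603, 574 and 803 at 5 h in DMSO cells. MAPKi cells had 486, 367 and 352 normalized counts at 0 h and 413, 325 and 408 at 5 h. All DMSO libraries at 5 h were above all at 0 h, whereas the MAPKi libraries overlapped, and the difference was -2.18 ± 0.25 log2 (adjusted p = 4.4e-09) and passed under every alternative tried. In T it was at 97.7% ± 10.7 and 55.2% ± 9.07. In CHX, without triptolide, CYB5D2 went from 152, 171 and 126 normalized counts at 0 h to 271, 263 and 276 at 5 h in DMSO cells. The MAPKi libraries in CHX overlapped. CYB5D2 lies antisense to ANKFY1. RN7SL832P, a pseudogene of the signal recognition particle RNA, stood at 51.4, 72.0 and 68.6 normalized counts at 0 h and 363, 368 and 449 at 5 h in DMSO cells, and at 151, 81.2 and 132 normalized counts at 0 h and 83.5, 82.0 and 92.5 at 5 h in MAPKi cells. It rose in DMSO cells, and its difference of -3.12 ± 0.36 log2 (adjusted p = 4.4e-09) also passed under every alternative. FAM71F1 had low counts, with 9.89, 11.5 and 8.20 normalized counts at 0 h and 86.5, 41.5 and 59.0 at 5 h in DMSO cells, where it rose, and 46.5, 49.3 and 34.3 normalized counts at 0 h and 31.9, 41.9 and 61.7 at 5 h in MAPKi cells, where the libraries overlapped.

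Entries for small RNAs moved apart as well. QuantSeq reads polyadenylated RNA, and whether these reads come from the small RNAs themselves or from longer transcripts was not tested. SNORD104, a box C/D snoRNA, stood at 88.0, 98.2 and 76.8 normalized counts at 0 h and 166, 171 and 159.7 at 5 h in DMSO cells, where it rose, and at 115, 91.4 and 91.2 normalized counts at 0 h and 64.5, 60.5 and 29.5 at 5 h in MAPKi cells, where it fell. TRNF, the mitochondrial phenylalanine tRNA, stood at 3704, 4105 and 3293 normalized counts at 0 h and 5024, 4184 and 4849 at 5 h in DMSO cells and at 5082, 4320.4 and 3939 normalized counts at 0 h and 2709, 1923 and 1974 at 5 h in MAPKi cells, where it fell. TRNM, the mitochondrial methionine tRNA, was called as well, and 1 library decided it: MAPKi replicate 2 held 1369 normalized counts at 0 h, against 156 and 82.3 in replicates 1 and 3. Without replicate 2 the difference was -0.61 log2 (adjusted p = 0.89).

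Of messages with more left after MAPKi, NPTN-IT1 stood at 51.4, 50.7 and 60.5 normalized counts at 0 h and 2.00, 0 and 0 at 5 h in DMSO cells and at 54.8, 47.3 and 57.8 normalized counts at 0 h and 14.9, 10.5 and 5.36 at 5 h in MAPKi cells, so that 19.3% ± 8.99 was left after MAPKi, while at 5 h the only DMSO value above 0 was in replicate 1. DDIT4, an inhibitor of the mTORC1 kinase and an ATF4 target, stood at 319, 312 and 383 normalized counts at 0 h and 27.3, 29.4 and 16.2 at 5 h in DMSO cells. Its MAPKi values were 543, 486 and 425 normalized counts at 0 h and 113, 151 and 148 at 5 h. It fell in both without overlap, with 7.18% ± 2.09 and 28.3% ± 4.34 left and a difference of 1.93 ± 0.32 log2 (adjusted p = 0.00018), positive under every alternative with adjusted p up to 0.087. NFKBIA differed in the same direction, by 1.14 ± 0.29 log2 (adjusted p = 0.039), a call lost under other scalings. TBC1D8, KANTR, MAGI3, TUBD1, DDX20 and LOC101929307 had 27.7%, 21.1%, 40.1%, 36.6%, 41.6% and 25.6% left in DMSO cells. In MAPKi cells the same genes, in that order, had 71.5%, 60.7%, 121%, 98.1%, 105% and 58.5% left. Of these TBC1D8, KANTR and DDX20 overlap genes on the other strand.

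Mitotic genes made up a large part of the relatively higher calls. Of 66 tested, 18 fell and 0 rose in DMSO cells, while 0 fell and 23 rose in MAPKi cells, and of these 1 fall and 0 rises held under all 8 scalings. The 18 falls were 27.3% of the list, beside 20% over all genes, and the 23 rises stand beside 1.62% over all genes. The difference passed for 19, all higher after MAPKi, beside 0.582% of all genes that were higher. The median difference was 0.51 log2 against 0.13 over all genes. CENPE, the kinesin of the centromere, stood at 2442, 2253 and 2607 normalized counts at 0 h and 2009, 1717 and 1787 at 5 h in DMSO cells. In MAPKi cells it stood at 1532, 1569.9 and 1710.4 normalized counts at 0 h and 2081, 2059 and 2293 at 5 h. It fell in DMSO cells and rose in MAPKi cells with no overlap, and the difference was 0.82 ± 0.18 log2 (adjusted p = 0.0068). ASPM and HMMR, both of the spindle, kept 71.8% ± 8.00 and 87.0% ± 6.54 in DMSO cells and 126% ± 7.99 and 148% ± 17.4 in MAPKi cells. MKI67, the proliferation marker Ki-67, kept 72.4% ± 6.50 and 121% ± 3.68, and KIF14 75.3% ± 1.78 and 149% ± 34.1. These 5 were chosen after their values were seen.

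How many mitotic genes rose within MAPKi cells depended on the scaling. With TMM 47 of the 66 rose and 0 fell, beside 5.71% and 6.52% of all genes. None rose under all 8 scalings, and with the scale of the mitochondrial rRNAs ASPM was at -0.04 log2. In vehicle, over the same 5 h, 7 of the 66 fell in MAPKi cells and 0 in DMSO cells, beside 0.823% and 0.221% of all genes. The median log2 changes of the list there were -0.19 and 0.03. Relative to all genes the list stayed higher after MAPKi: with mitochondrial rRNA its median difference was 0.07 against -0.30, and with TMM 0.41 against 0.04. Calls were fewer, 13 with TMM (beside 0.328% of all genes) and 0 with mitochondrial rRNA. Of 79 DNA repair genes 24 fell in DMSO cells and 4 in MAPKi cells, with medians of 82.3% and 96.01%, and the difference passed for 4. The falls are 30.4% and 5.06% of the list, beside 20% and 11% over all genes. Those that held under all 8 scalings numbered 10 and 1, beside 7.66% and 6.52% over all genes. With TMM 10 of the 79 fell in DMSO cells and 12 rose in MAPKi cells, beside 7.84% and 5.71% of all genes. The difference passed for 1 with TMM and for 0 with mitochondrial rRNA. Of 53 genes of the replication machinery 6 and 1 fell (11.3% and 1.89%), with medians of 85.7% and 109%. In each pretreatment 0 of these falls held under all 8 scalings, and with TMM 15 of the 53 rose in MAPKi cells. In MAPKi vehicle 10 of the 53 fell, beside 0.823% of all genes, with a median log2 change of -0.35, and in DMSO vehicle 0 fell.

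**Figure D4:**
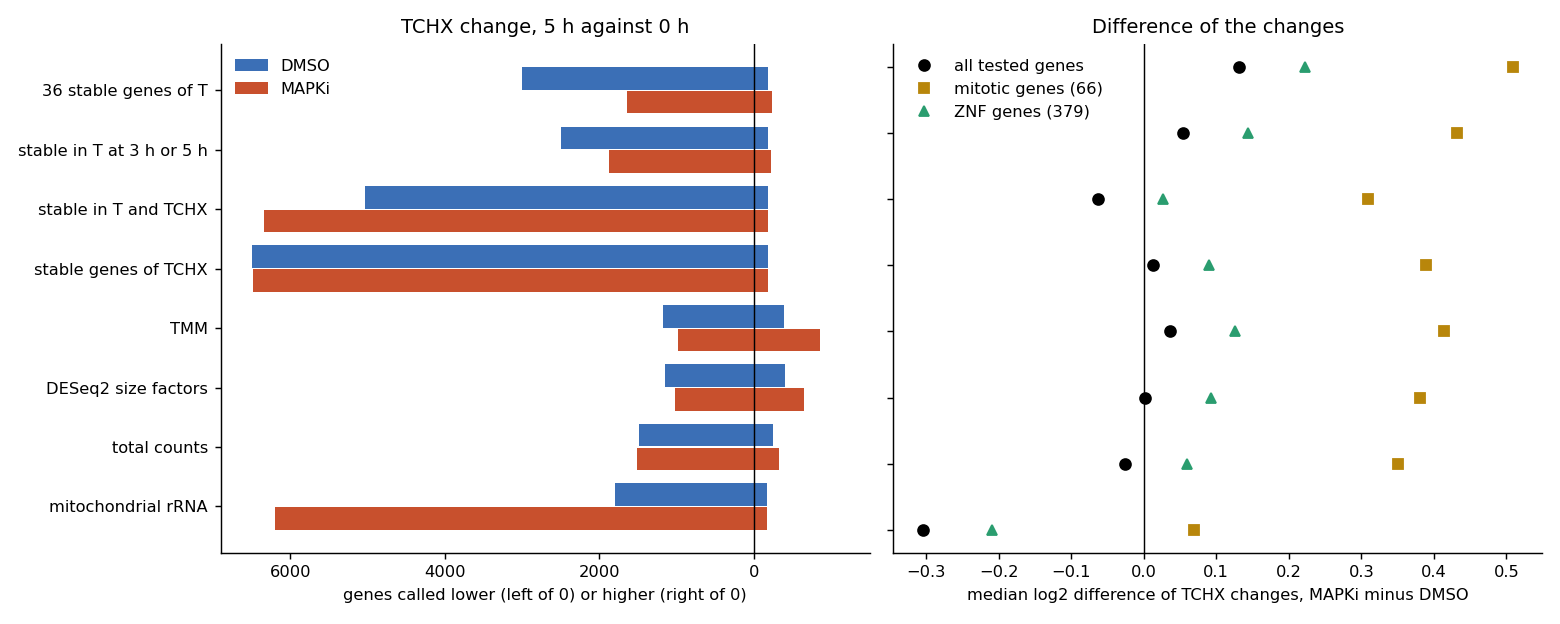
Left, the number of genes called lower (left of 0) and higher (right of 0) at 5 h against 0 h in TCHX under each of 8 scalings, with DMSO cells in blue and MAPKi cells in red; right, the median log2 difference under the same scalings for all tested genes (circles), mitotic genes (squares) and ZNF genes (triangles). The falls in MAPKi cells number 974 with TMM and 6486 with the stable genes of TCHX, while the mitotic median stays above that of all genes.

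What the falling messages shared in their 3′ UTRs was described, with no test, over 8861 genes with an annotated 3′ UTR and a mean of at least 50 normalized counts over all libraries. The 5469 genes without TATTTAT had a median of 87.5% left in DMSO cells, the 1900 with 1 copy 82.4%, the 798 with 2 copies 79.5% and the 694 with 3 or more 78.0%. In MAPKi cells the medians were 93.8%, 90.8%, 87.5% and 86.5%. Steps of the same direction were seen in T, with 75.7%, 68.0%, 64.8% and 64.0% left in DMSO cells and 65.5%, 59.5%, 56.6% and 55.3% in MAPKi cells. They are therefore not particular to TCHX. The share called lower rose with the number of copies from 19.9% to 43.1% in DMSO cells and from 9.9% to 24.1% in MAPKi cells, beside 25.5% and 13% over all 8861.

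The Pumilio element TGTANATA, which 31.1% of 11998 tested 3′ UTRs hold, gave the wider steps. The medians left were 87.6%, 81.2% and 76.3% for 0, 1 and at least 2 copies in DMSO cells, and 93.8%, 89.2% and 85.5% in MAPKi cells. In T they were 75.8%, 65.6% and 60.5% in DMSO cells, and 65.9%, 57.9% and 52.8% in MAPKi cells. Among genes that fell under all 8 scalings, TATTTAT was in 53.8% of 744 3′ UTRs in DMSO cells and 55.4% of 614 in MAPKi cells, beside 38.3% of the 8861, and TGTANATA in 55.1% and 54.7%, beside 32.8%. Both motifs are met more often in long 3′ UTRs, and length went the same way: from the shortest to the longest quartile the medians were 90.4%, 86.2%, 83.1% and 79.5% in DMSO cells and 96.2%, 93.4%, 91.4% and 87.4% in MAPKi cells. Within the longest quartile genes with TATTTAT had 78.6% and those without 81.5% in DMSO cells, and 86.7% and 88.7% in MAPKi cells. In the shortest quartile the medians with and without it were 88.0% and 90.6% in DMSO cells, and 95.6% and 96.3% in MAPKi cells. TGTANATA was not split by length. Less was also left in TCHX with longer coding sequence, at Spearman correlations of -0.232 in DMSO cells and -0.128 in MAPKi cells. For the share of A and U in the 3′ UTR they were -0.245 and -0.0149. In T the correlations were -0.259 and -0.197 for coding length, and -0.102 and -0.0161 for A and U. Which of these features matters was not tested.

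The share of G and C at the third codon position, a measure of codon use, went with the level left in DMSO cells. From the lowest to the highest quartile the median ran from 79.8% to 90.1% in DMSO cells, and was 91.7%, 92.7%, 92.9% and 91.6% in MAPKi cells. The Spearman correlations across genes were 0.246 and -0.00464. In T the median ran from 65.4% to 76.2% in DMSO cells, and was 57.3%, 64.3%, 64.6% and 63.9% in MAPKi cells. The correlations in T were 0.115 and 0.0524. The direction seen in DMSO cells is therefore not particular to TCHX. Genes share libraries and base composition, and whether this contrast between the pretreatments exceeds the spread between replicates was not tested.

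**Figure D5:**
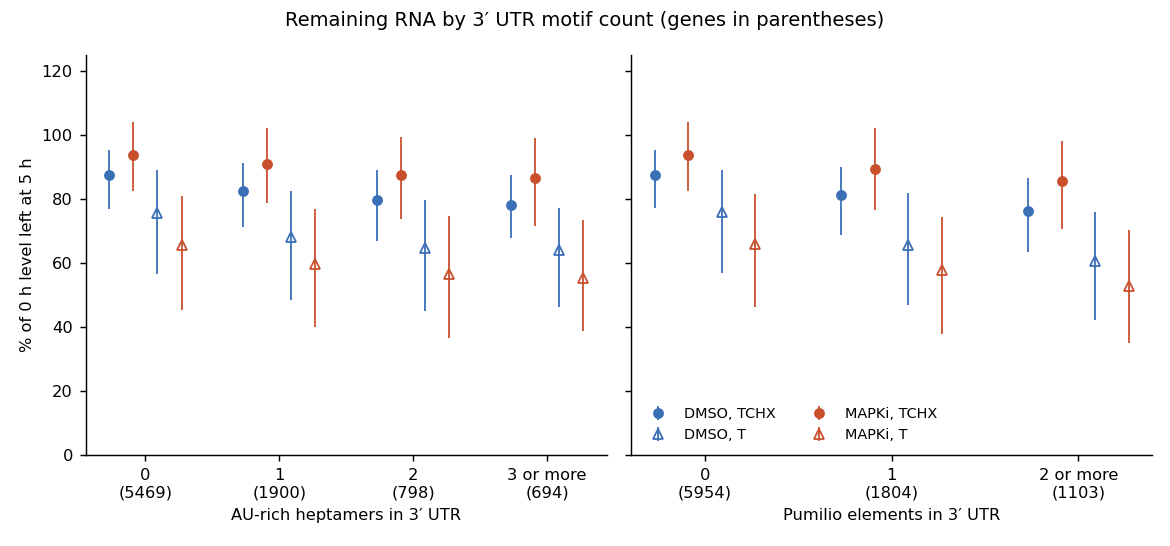
Median percent of the 0 h level left at 5 h in TCHX (filled circles) and T (open triangles), with bars from the lower to the upper quartile over genes, by the number of AU-rich heptamers and of Pumilio elements in the 3′ UTR, for DMSO cells in blue and MAPKi cells in red. The TCHX and the T medians step down with each added copy in both pretreatments, within quartile ranges that overlap.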

How the data were processed

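A375 cells were lysed in detergent, RNA was extracted from the lysate, and 500 ng per sample with an added ERCC spike-in (not used here) went into QuantSeq 3′ libraries. Per the labels' processing notes and the methods, the authors trimmed reads with fastp 0.20.1, aligned them with HISAT2 2.2.1 to GRCh38.p13 and counted them per gene with HTSeq 0.13.5, and deposited raw counts, 1 column per library, for 44659 gene entries. Whether counting used strand is not given in the sources used here, and no molecular identifiers were described, so PCR copies count as reads.

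From these counts, genes without reads enough in any group were dropped by edgeR's filterByExpr over 32 groups, which left 14948. Size factors came from 36 stable genes (over 0.2 CPM at 0 h, at least 1.1-fold that CPM in T at 3 h and 5 h, and 0 h above 10% of the later CPM, in all replicates of both pretreatments); 6 of them were ribosomal protein genes. edgeR 4.0.16 in R 4.3.3 was fitted to all 96 libraries with a mean per group, contrasts were tested by quasi-likelihood, two-sided, and p-values were adjusted over all 14948 genes. Percent left is the 5 h value of a replicate over the mean of the 0 h libraries, so that its SD holds the spread at 5 h and not that at 0 h. Replicates were distinct (chi-square per degree of freedom of 4.03 to 12.2 between pairs). Alternatives were 7 other scalings, no filter, DESeq2 1.42.0, fewer groups, the replicate block, other 0 h or 5 h definitions and leaving out each replicate. Python 3.11.15, pandas 2.3.3 and SciPy 1.17.1 were used for the rest, and the fits were tested on simulated data.

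Entries were matched to GENCODE 44 by symbol (13196) or synonym (134); 1533 had no match and 85 were ambiguous. 3′ UTRs and sites are from its transcripts on GRCh38. Members and lists were chosen with earlier results of these data known. By rule, the text could name, per pretreatment, the 12 largest falls and 5 largest rises at 50 or more normalized counts, the 8 lowest and 8 highest differences, up to 3 fallen members per list with its most abundant one, and a few fixed genes. Depth was 3962033 to 10642109 counts per library, and low counts limit genes near 0.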

Additional observations from a re-analysis of the deposited data

Results flagged for a closer look

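The change in TCHX differed between MAPKi and DMSO cells, by edgeR's quasi-likelihood test of the difference with Benjamini-Hochberg adjustment over all genes, for 106 genes. The named ones are given as log2 differences, MAPKi minus DMSO, in 2 sets.

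Lower after MAPKi were RN7SL832P at -3.12, TRNM at -2.55, GDNF at -2.37, CYB5D2 at -2.18, SNORD104 at -1.81, GDF15 at -1.38, TRNF at -1.35 and ARID3A at -1.22. The value of TRNM rests on a single 0 h library, MAPKi replicate 2, and without it the difference was -0.61 with no call.

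Higher after MAPKi were NPTN-IT1 at 3.55, DDIT4 at 1.93, MAGI3 at 1.52, KANTR at 1.5, TUBD1 at 1.41, TBC1D8 at 1.38, DDX20 at 1.31 and LOC101929307 at 1.20. Of these 8, NPTN-IT1 was called under all 8 scalings.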

How the results depend on the processing

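With other scalings, the TCHX call counts moved in ways whose cause was not tested. In DMSO cells (3176 genes called) they were 1567 with TMM, 1552 with DESeq2 size factors, 1729 with total counts, 1962 with mitochondrial rRNA, 5221 with stable genes of both triptolide arms and 6687 with those of the TCHX arm. In MAPKi cells (1884) they were 6375 with mitochondrial rRNA, 6522 with both arms and 6666 with the TCHX arm, and 3521 with 0 h as the mean of 4 arms. The difference (106 genes) became 58 with DESeq2 size factors, 59 with total counts, 68 with mitochondrial rRNA, 27 with both arms, 27 with the TCHX arm, 48 with stable genes at 3 h or 5 h, 182 with DESeq2's Wald test, 44 with only the groups of the contrast, 246 with 0 h as the mean of 4 arms and 50 with the mean of 3 h and 5 h.

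The contrast of TCHX with T became 3478 genes in DMSO cells with 0 h as the mean of 4 arms, from 2014. In MAPKi cells it became 2661 with TMM, 2596 with DESeq2 size factors, 2709 with total counts and 2378 with both arms, from 4824. Vehicle in DMSO cells (107 genes) gave 170 with total counts, 950 with both arms, 453 with the TCHX arm, 327 without the filter, 177 with the Wald test, 376 with 0 h as the mean of 4 arms and 168 with the mean of 3 h and 5 h. Vehicle in MAPKi cells (323) gave 499 with TMM, 501 with DESeq2 size factors, 1098 with both arms and 1464 with 0 h as the mean of 4 arms.

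The median percent left in DMSO cells (81.0) was 98.8 with TMM, 99.1 with DESeq2 size factors, 93.3 with total counts, 84.8 with mitochondrial rRNA, 74.3 with both arms, 69.1 with the TCHX arm, 77.3 without the filter and 85.2 over 3 h and 5 h. In MAPKi cells (88.1) it was 100.5, 98.5, 90.8, 68.1, 70.4 and 69.0 in that order of scalings, 85.5 with stable genes at 3 h or 5 h, 83.0 without the filter, 84.5 with 0 h as the mean of 4 arms and 90.4 over 3 h and 5 h. The MAPKi minus DMSO difference of medians (7.13 points) fell to 1.69 with TMM, 2.43 with stable genes at 3 h or 5 h and 2.96 with 0 h as the mean of 4 arms, and turned negative with DESeq2 size factors (-0.615), total counts (-2.50), mitochondrial rRNA (-16.7), both arms (-3.97) and the TCHX arm (-0.145).

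Leaving out each replicate in turn gave 1832 to 2090 calls in DMSO cells, 1002 to 1227 in MAPKi cells, 10 (without replicate 3) to 46 (without replicate 1) for the difference, 1294 to 1464 and 3165 to 4137 for TCHX against T, and 32 to 56 and 90 to 117 in vehicle. With the replicate number as a block there were 3352 and 2007 calls in TCHX, 142 for the difference, 2132 and 4962 for TCHX against T, and 161 and 419 in vehicle. Deviations of same-numbered libraries correlated at -0.162 to 0.258, over 0.1 in 4 of 12 cases, so the numbers were not taken as pairs. Of 261 single-gene results, 166 kept their direction and call in every alternative run. In MAPKi cells 6 values turned negative: MALAT1 with mitochondrial rRNA (-0.0077), ASPM with mitochondrial rRNA (-0.040) and the TCHX arm (-0.027), ACTB with both arms (-0.32) and the TCHX arm (-0.34), and ATF4 with the TCHX arm (-0.26). Stable genes of both arms at both times numbered 1, so that scaling could not be computed. The sets of both arms at 3 h or 5 h and of the TCHX arm were chosen after seeing the data.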
